A study of Mus musculus with 8 samples.

Results

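Eicosanoids are short-lived lipid signals made from arachidonic acid, and 10 genes of their synthesis, sensing and breakdown were followed here in both main monocyte subsets of mouse blood. The genes were chosen by name and role, with earlier results of these data known. Alox5, Alox5ap, Lta4h and Ltc4s stood for leukotriene synthesis, Ltb4r1 for leukotriene sensing, and Ptgs1 and Ptgs2 for cyclooxygenase activity. Ptger2 and Ptger4 stood for prostaglandin sensing, and Hpgd for prostaglandin breakdown. All probe sets annotated to exactly 1 of these symbols were taken, which gave 14 of the 45037 probe sets that are not array controls, and 9 of the 10 genes among 18193 genes so annotated. Ptgs1 matched no such probe set and is not analysed here. Of the 14 probe sets, 12 passed the filter on dim signal and stood for 8 genes, and the other two, both of Ptgs2, did not pass it.

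Blood leukocytes of C57Bl/6 mice, 12 weeks old, were sorted for monocytes of a Gr1lo (Ly-6clo) subset and a Gr1hi (Ly-6chi) subset, called Ly6Clo and Ly6Chi below. No label gives a treatment, a transgene or a deletion for either subset. Leukocytes of 5 mice were pooled for each sort, so a sample averages over animals and no value belongs to a single mouse. There were 4 Ly6Clo and 4 Ly6Chi samples, each hybridised to 1 Affymetrix 3' expression array, and the comparison throughout is Ly6Clo against Ly6Chi. Ly6Chi cells are known as the classical monocytes that enter inflamed tissue, and Ly6Clo cells as the nonclassical monocytes that patrol the vessel wall.

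In leukotriene synthesis, the enzyme 5-lipoxygenase (Alox5) takes arachidonic acid from its membrane partner Alox5ap and turns it into an unstable epoxide. Lta4h then makes the neutrophil attractant LTB4 from this epoxide, or Ltc4s couples it to glutathione to make the cysteinyl leukotrienes that constrict airways and open vessel walls. In the cyclooxygenase branch, Ptgs1 and the inducible Ptgs2 make the precursor of all prostanoids, of which prostaglandin E2 acts on monocytes through the cAMP-raising receptors Ptger2 and Ptger4, and Hpgd begins the breakdown of prostaglandins. Monocytes and their tissue descendants are known as makers and as targets of both families of lipids.

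Values are log2 of the deposited probe set intensity, and signed differences are Ly6Clo minus Ly6Chi. There is no sequencing depth here, precision is limited by how many arrays there were, and in bulk RNA fewer expressing cells and less RNA per cell cannot be told apart. Levels are compared between samples within a probe set, never between probe sets. A probe set was tested if 4 or more of its 8 values exceeded the median of all values in the table (intensity 81.9, log2 6.36), and was called at a limma Benjamini-Hochberg adjusted p under 0.05 over all 22831 tested probe sets. The array medians lay between 80.5 and 83.0. The monocyte genes Csf1r, Lyz2, Cd68, Itgam, Adgre1, Cx3cr1 and Spi1 lay over the table median. As 50.7% of all probe sets passed the filter at this level, that alone does not tell monocytes from other cells. Markers of each subset, chosen with earlier results of these data known, were read beside the labels. Of the nonclassical markers, all 6 measured (Nr4a1, Spn, Itgax, Treml4, Cd36 and Pparg) were called toward Ly6Clo, against 14.1% of all genes tested. Of the classical markers, all 4 measured (Ccr2, Vcan, F13a1 and Chil3) were called toward Ly6Chi, against 18.5%. Because of how the lists were chosen, these counts describe them and do not test the labels. Of the 7 monocyte genes above, 4 were called toward Ly6Clo and 1, Lyz2, toward Ly6Chi.

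Of the 12 tested probe sets, 5 were called higher in Ly6Clo, 2 were called higher in Ly6Chi and 5 were not called. This is 58.3% called, against a background of 31.1% of all tested probe sets (15.2% toward Ly6Clo, 15.9% toward Ly6Chi). In 7 of the 12 no value of one subset fell within the other, against 31.8% of all tested probe sets. The median difference over the 12 was 0.23, against 0.01 over all tested probe sets, and the median size of a difference was 0.42, against 0.13. Lta4h, Hpgd and Ptger4 had several probe sets among the 12, which count separately in these figures. By gene, Alox5, Lta4h and Hpgd were called higher in Ly6Clo, Alox5ap and Ptger2 were called higher in Ly6Chi, and Ltc4s, Ltb4r1 and Ptger4 were not called. With the brightest probe set per gene, 5 of 8 genes were called, or 62.5%, against 32.5% of all genes tested (14.1% toward Ly6Clo, 18.5% toward Ly6Chi). The median difference was then 0.20, against -0.01, and the median size 0.42, against 0.13. The genes were chosen with earlier results of these data known, so these shares and medians describe the list and do not test it.

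**Figure D1:**
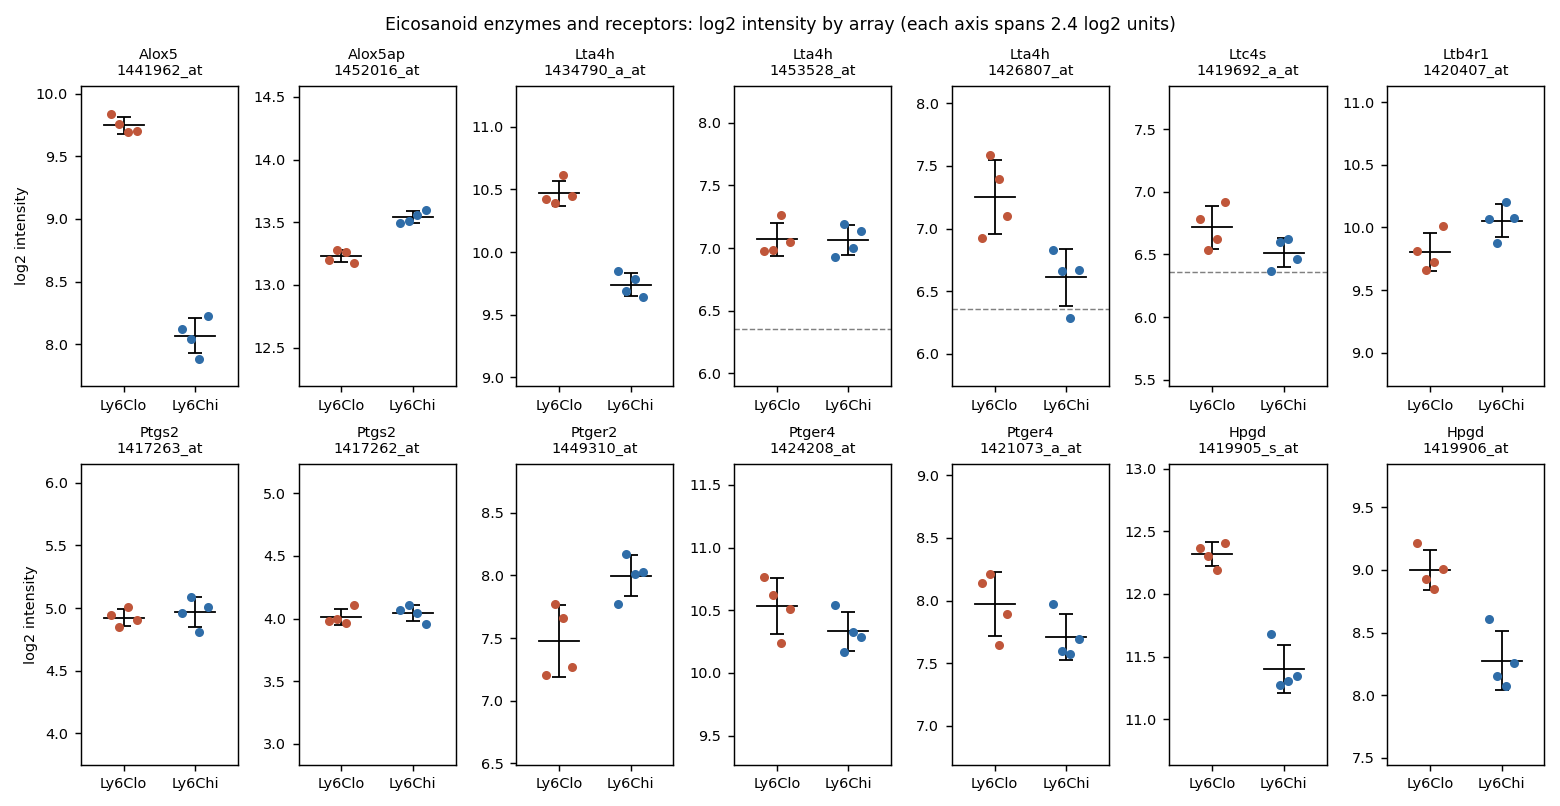
Log2 intensity of the 14 probe sets in each of the 4 Ly6Clo (red, left) and 4 Ly6Chi (blue, right) arrays, with the mean and SD as a bar and whiskers and the table median of 6.36 as a dashed line where it falls within a panel. Alox5, Hpgd and the brightest probe set of Lta4h stood higher in all 4 Ly6Clo arrays, Alox5ap and Ptger2 in all 4 Ly6Chi arrays, and both Ptgs2 probe sets lay below the table median in all 8 arrays.

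Promoter sequences of the 4 called genes listed in the RefSeq promoter table are shown because their differences carry the result: Alox5, Lta4h and Hpgd, higher in Ly6Clo, and Ptger2, higher in Ly6Chi. The table, of build GRCm38.p6, held 9 of the 10 genes (not Alox5ap). Each window runs from 250 bases before to 50 bases after the transcription start, 5′ to 3′ on the gene's strand. The windows are chr6:116461129-116461428 (minus strand) for Alox5, chr10:93453146-93453445 (plus strand) for Lta4h, chr8:56294302-56294601 (plus strand) for Hpgd and chr14:44987861-44988160 (plus strand) for Ptger2. Capitals mark matches, on either strand, to the GC box GGGCGG or to GAGGAA, the core bound by the myeloid factor PU.1.
Alox5: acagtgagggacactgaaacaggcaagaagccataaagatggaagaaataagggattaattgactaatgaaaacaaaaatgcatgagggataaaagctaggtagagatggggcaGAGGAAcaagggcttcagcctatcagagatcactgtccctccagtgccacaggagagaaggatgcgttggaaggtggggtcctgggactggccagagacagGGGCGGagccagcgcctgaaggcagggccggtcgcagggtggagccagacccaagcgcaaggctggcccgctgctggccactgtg
Lta4h: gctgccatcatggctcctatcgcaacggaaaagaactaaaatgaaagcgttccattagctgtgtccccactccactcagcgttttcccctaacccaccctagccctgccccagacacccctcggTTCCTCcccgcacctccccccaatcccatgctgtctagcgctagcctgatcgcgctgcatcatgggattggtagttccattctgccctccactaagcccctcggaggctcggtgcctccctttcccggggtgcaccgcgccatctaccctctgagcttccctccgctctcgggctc
Hpgd: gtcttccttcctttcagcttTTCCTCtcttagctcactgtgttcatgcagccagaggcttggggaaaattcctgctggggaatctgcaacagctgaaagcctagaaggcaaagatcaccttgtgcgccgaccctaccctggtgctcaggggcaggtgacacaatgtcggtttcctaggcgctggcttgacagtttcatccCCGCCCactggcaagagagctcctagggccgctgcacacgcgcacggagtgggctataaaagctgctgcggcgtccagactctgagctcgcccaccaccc
Ptger2: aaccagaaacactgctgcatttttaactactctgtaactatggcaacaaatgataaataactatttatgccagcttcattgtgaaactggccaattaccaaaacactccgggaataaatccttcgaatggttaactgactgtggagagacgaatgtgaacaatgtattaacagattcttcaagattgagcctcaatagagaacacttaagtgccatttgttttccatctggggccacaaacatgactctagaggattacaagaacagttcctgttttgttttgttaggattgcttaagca

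The Alox5 window held 1 GC box, at positions -35 to -30 from the start, and 1 GAGGAA match. The Hpgd window held 1 of each, the Lta4h window 1 GAGGAA match and no GC box, and the Ptger2 window no match to either. Of 32851 promoter windows of this length in the table, 35.7% held a GC box and 28.3% a GAGGAA match. The Ptger2 window was 37.7% G and C and the Ptger4 window 67.0%, with 4 GC boxes, of which a pair overlap by 1 base, against a median of 52.7% over all windows. Neither AAAGGTCA, the element known to bind Nr4a receptors, nor TGACGTCA, the full cAMP response element, was present in any of the 9 windows. These letters occurred in 1.51% and 1.79% of all windows. Shorter or variant forms of either element were not searched. A match describes letters only.

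Alox5 showed the widest difference of the 9 measured genes and was 3.20-fold higher in Ly6Clo monocytes. Its log2 intensity was 9.84, 9.76, 9.69 and 9.70 in the 4 Ly6Clo samples, against 8.12, 8.04, 7.89 and 8.22 in the 4 Ly6Chi samples. The lowest Ly6Clo value lay 1.47 above the highest Ly6Chi value. The means were 9.75 ± 0.07 in Ly6Clo and 8.07 ± 0.14 in Ly6Chi (mean ± SD, n = 4 each), a difference of 1.68 (95% interval 1.51 to 1.85, SE 0.08, limma adjusted p = 3.9e-08). Among the 3472 probe sets called higher in Ly6Clo, 145 had a larger difference than Alox5. Alox5ap, whose protein hands arachidonic acid to Alox5, was lower in Ly6Clo by a small and even margin. Its values were 13.20, 13.28, 13.26 and 13.18 in the 4 Ly6Clo samples, against 13.50, 13.51, 13.56 and 13.60 in the 4 Ly6Chi samples. The groups did not overlap, and the difference was -0.31 (95% interval -0.44 to -0.18, limma adjusted p = 0.0016), or 1.24-fold.

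The log2 ratio of Alox5 to Alox5ap was -3.36, -3.52, -3.57 and -3.47 in Ly6Clo samples, against -5.37, -5.47, -5.67 and -5.38 in Ly6Chi samples. It averaged -3.48 ± 0.09 in Ly6Clo and -5.47 ± 0.14 in Ly6Chi (SD, n = 4 each), a 3.98-fold shift toward Alox5 in Ly6Clo cells. Each gene alone parted the subsets, in opposite directions, so their ratio had to part them too and its test adds nothing to the tests of the genes. The ratio shows unequal change of the 2 genes and says nothing of which transcript was more abundant.

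Lta4h, the enzyme of the LTB4 branch, was called higher in Ly6Clo by 2 of its 3 probe sets. The brightest of the 3 by mean read 10.42, 10.39, 10.62 and 10.45 in the 4 Ly6Clo samples, against 9.85, 9.69, 9.79 and 9.64 in the 4 Ly6Chi samples. No Ly6Clo value fell within the Ly6Chi range, and the difference was 0.73 (95% interval 0.57 to 0.89, limma adjusted p = 1.5e-05), or 1.66-fold. The dimmest of the 3 read 6.93, 7.59, 7.40 and 7.10 in the 4 Ly6Clo samples, against 6.83, 6.66, 6.29 and 6.67 in the 4 Ly6Chi samples. Its groups also did not overlap, although they spread more widely and 1 Ly6Chi value lay below the table median, and the difference was 0.64 (limma adjusted p = 0.0055). The other one read 6.98, 6.99, 7.26 and 7.05 in the 4 Ly6Clo samples, against 6.93, 7.19, 6.999 and 7.14 in the 4 Ly6Chi samples, with fully overlapping groups. Its difference was 0.0055 (95% interval -0.18 to 0.19, limma adjusted p = 0.97). For this probe set the interval excludes the size seen with the brightest one, so the 3 probe sets of this gene disagree. It averaged 7.07 in Ly6Clo and 7.06 in Ly6Chi, near the table median, which limits what it can say of the transcript.

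Ltc4s, the enzyme of the cysteinyl branch, lay close to the table median in both subsets. Its values were 6.78, 6.54, 6.63 and 6.92 in the 4 Ly6Clo samples, against 6.37, 6.60, 6.62 and 6.47 in the 4 Ly6Chi samples. The groups overlapped, and the difference of 0.20 (95% interval -0.0009 to 0.40, limma adjusted p = 0.13) was not called. Within arrays, the log2 ratio of Ltc4s to the brightest probe set of Lta4h was -3.64, -3.85, -3.99 and -3.53 in Ly6Clo samples, against -3.48, -3.09, -3.17 and -3.17 in Ly6Chi samples. The groups did not overlap, and the ratio was 1.44-fold lower in Ly6Clo (difference -0.53, two-sided exact permutation p = 0.0286, the smallest that 70 orders can give, adjusted p = 0.043 over 3 ratios). With any array left out the groups still did not overlap. The ratio was nonetheless not called in 6 of 8 cases (exact permutation p = 0.057), all but those without Ly6Chi replicate 1 or Ly6Clo replicate 4. With 4 arrays against 3, an order in the opposite direction can reach the same size, so this p does not show a loss of separation. With the mean of all 3 Lta4h probe sets in place of the brightest, the difference was -0.26 and was not called (exact permutation p = 0.20).

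Ltb4r1, the high-affinity receptor that draws leukocytes along LTB4, read 9.81, 9.66, 9.73 and 10.01 in the 4 Ly6Clo samples, against 10.07, 9.88, 10.20 and 10.08 in the 4 Ly6Chi samples. The highest Ly6Clo value lay within the Ly6Chi range, and 3 of the 4 Ly6Clo values lay below all Ly6Chi values. The means were 9.80 ± 0.15 in Ly6Clo and 10.05 ± 0.13 in Ly6Chi (SD, n = 4 each), a difference of -0.25 (95% interval -0.45 to -0.05, limma adjusted p = 0.055) that was not called. This receptor sits at the threshold: it was called under 7 alternative settings, with an adjusted p of 0.019 to 0.16 over all of the alternatives.

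**Figure D2:**
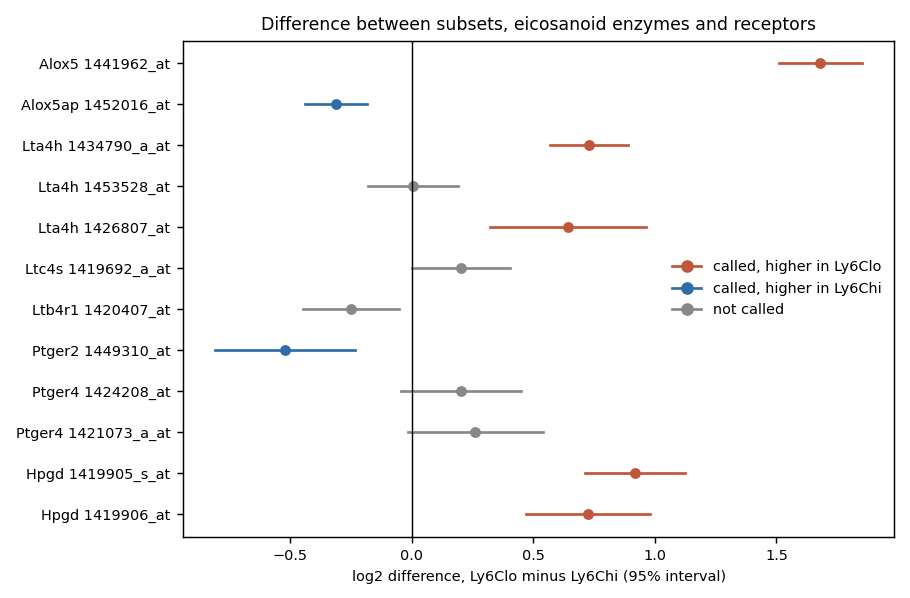
Log2 difference, Ly6Clo minus Ly6Chi, of the 12 tested probe sets with unadjusted 95% intervals, coloured by the limma call (red higher in Ly6Clo, blue higher in Ly6Chi, grey not called). Alox5 stands apart at 1.68, Hpgd and 2 of 3 Lta4h probe sets lie between 0.64 and 0.92, and Ptger2 is lowest at -0.52.

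Among the cyclooxygenases, Ptgs2, the form that inflammatory stimuli induce, was dim in every sample. The brighter of its probe sets read 4.95, 4.85, 5.00 and 4.90 in the 4 Ly6Clo samples, against 4.96, 5.09, 4.81 and 5.01 in the 4 Ly6Chi samples. The dimmer one read 3.98, 4.00, 3.96 and 4.11 in the 4 Ly6Clo samples, against 4.07, 4.11, 4.04 and 3.96 in the 4 Ly6Chi samples. All 16 values lay below the table median of 6.36, so Ptgs2 was not detectable above this stand-in for background in either subset and no fold is given. With no filter on dim signal, the differences of the brighter and the dimmer one were -0.04 and -0.03 (limma adjusted p = 0.82 and 0.85 over 45037 probe sets). The constitutive cyclooxygenase Ptgs1 is not analysed here, so the planned ratio of Ptgs2 to Ptgs1 was not computed.

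The prostaglandin E2 receptors gave 1 call between them. Ptger2 read 7.20, 7.77, 7.66 and 7.27 in the 4 Ly6Clo samples, against 7.78, 8.17, 8.01 and 8.03 in the 4 Ly6Chi samples. The groups parted only by a hair, with 7.7745 as the highest Ly6Clo value and 7.7752 as the lowest Ly6Chi value. Ptger2 was 1.44-fold lower in Ly6Clo (difference -0.52, 95% interval -0.81 to -0.23, limma adjusted p = 0.0097). Ptger4 had 2 probe sets, both with a positive difference and neither called. The brighter one read 10.77, 10.62, 10.24 and 10.51 in the 4 Ly6Clo samples, against 10.55, 10.17, 10.33 and 10.29 in the 4 Ly6Chi samples (difference 0.20, 95% interval -0.05 to 0.45, limma adjusted p = 0.21). The dimmer one read 8.14, 8.21, 7.64 and 7.89 in the 4 Ly6Clo samples, against 7.97, 7.60, 7.57 and 7.70 in the 4 Ly6Chi samples (difference 0.26, limma adjusted p = 0.15). In both probe sets the subsets overlapped, with Ly6Clo replicate 3 the lowest of its group. Without Ly6Clo replicate 3, both Ptger4 probe sets were called higher in Ly6Clo, with differences of 0.30 and 0.37 (limma adjusted p = 0.043 and 0.029).

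The log2 ratio of Ptger4 to Ptger2 within an array was 3.56, 2.85, 2.58 and 3.24 in Ly6Clo samples, against 2.77, 1.99, 2.31 and 2.26 in Ly6Chi samples. The Ly6Chi sample numbered 1 lay inside the Ly6Clo range. The ratio averaged 3.06 ± 0.43 in Ly6Clo and 2.34 ± 0.32 in Ly6Chi (SD, n = 4 each), and the difference of 0.72 did not pass the two-sided exact permutation test (p = 0.057, adjusted p = 0.057 over 3 ratios).

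**Figure D3:**
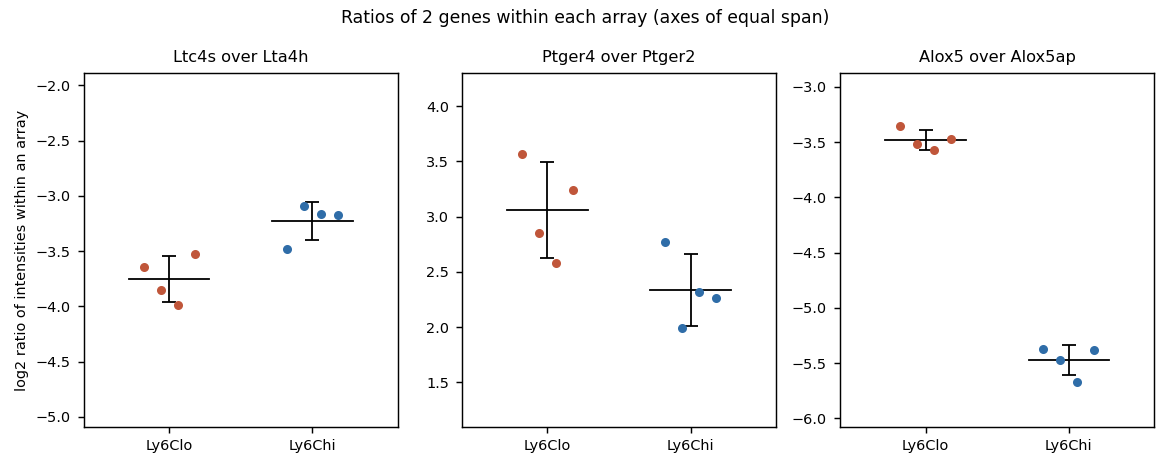
Log2 ratio of 2 genes within each array, by subset, from the probe set of each gene with the highest mean, with the mean and SD as a bar and whiskers (Ly6Clo left, Ly6Chi right, n = 4 each). The Alox5 to Alox5ap ratio separates the subsets by 1.99, the Ltc4s to Lta4h ratio by -0.53, and the Ptger4 to Ptger2 ratio overlaps.

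Hpgd, whose product inactivates prostaglandin E2, was higher in Ly6Clo by both of its probe sets. The brighter one, whose identifier ends in _s_at for probes that can match several transcripts, read 12.37, 12.31, 12.19 and 12.40 in the 4 Ly6Clo samples, against 11.68, 11.27, 11.31 and 11.35 in the 4 Ly6Chi samples. The groups stood 0.51 apart at their nearest, and Ly6Chi replicate 1 was the highest of its group. The difference was 0.92 (95% interval 0.71 to 1.12, limma adjusted p = 1.7e-05), or 1.89-fold. The dimmer one read 9.21, 8.93, 8.85 and 9.01 in the 4 Ly6Clo samples, against 8.61, 8.15, 8.08 and 8.26 in the 4 Ly6Chi samples. Its difference was 0.73 (95% interval 0.47 to 0.98, limma adjusted p = 5.1e-04), or 1.65-fold, again with no overlap.

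The rest of the eicosanoid pathway was followed through a list of 63 genes, of which 58 had a probe set with 1 symbol and 37 passed the filter. Each gene was represented by its tested probe set with the highest mean. Of the 37, 5 were called higher in Ly6Clo, 7 were called higher in Ly6Chi and 25 were not called, or 32.4% called against 32.5% of all 11546 genes tested (14.1% toward Ly6Clo, 18.5% toward Ly6Chi). The median size of a difference was 0.13 in the list and 0.13 over all genes, so the list as a whole stood at the background. In 12 genes of the list more than 1 probe set was tested, and 0 of these genes had calls in both directions.

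Of 13 tested genes of arachidonate supply, which release arachidonic acid or store it in membranes, 3 were called higher in Ly6Clo, 2 were called higher in Ly6Chi and 8 were not called, or 38.5% called against 32.5% of all genes. Lpcat2, which makes platelet-activating factor and rebuilds phosphatidylcholine, read 10.44, 10.27, 10.45 and 10.26 in the 4 Ly6Clo samples, against 9.42, 9.41, 9.33 and 9.43 in the 4 Ly6Chi samples, a 1.93-fold difference (limma adjusted p = 9.2e-07). Acsl4, which activates arachidonic acid for storage in membranes, averaged 9.01 ± 0.11 in Ly6Clo and 8.29 ± 0.13 in Ly6Chi (SD, n = 4 each) and was 1.64-fold higher in Ly6Clo (limma adjusted p = 4.2e-05). Lpcat3, which places arachidonic acid in phosphatidylcholine, was the third, named after its value was seen, at 1.40-fold. In the other direction, Mboat7, which places arachidonic acid in phosphatidylinositol, was 1.56-fold lower in Ly6Clo (difference -0.65, limma adjusted p = 1.5e-04). Pla2g4a, the cytosolic phospholipase that releases arachidonic acid, differed by -0.41 with overlapping groups (limma adjusted p = 0.034), and its call was lost when any of 4 arrays was left out (Ly6Chi replicate 1 or 2, Ly6Clo replicate 1 or 4), at differences of -0.39 to -0.28.

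Of 6 other tested genes of leukotriene metabolism and receptors, 1 was called toward Ly6Clo, 2 toward Ly6Chi and 3 were not called, against 14.1% and 18.5% of all genes toward each subset. Cyp4f18, a cytochrome P450 known to oxidise LTB4 in mice, read 11.61, 11.74, 11.72 and 11.70 in the 4 Ly6Clo samples, against 10.84, 10.84, 10.85 and 10.79 in the 4 Ly6Chi samples, a 1.82-fold difference (limma adjusted p = 6.4e-07). The second of its tested probe sets averaged 6.77 in Ly6Clo and 6.66 in Ly6Chi, near the table median. There the groups overlapped and the difference of 0.11 was not called (limma adjusted p = 0.37). Cysltr1, the receptor for cysteinyl leukotrienes, read 7.29, 7.43, 6.99 and 7.14 in the 4 Ly6Clo samples, against 8.51, 8.84, 8.62 and 8.21 in the 4 Ly6Chi samples. It was 2.51-fold lower in Ly6Clo with no overlap (difference -1.33, limma adjusted p = 1.1e-05), and the second of its tested probe sets was called in the same direction. Mgst3, a glutathione transferase related to Ltc4s, was 1.77-fold lower in Ly6Clo (difference -0.82, limma adjusted p = 2.3e-05). Ggt5 and Cotl1 were counted as not called, although dimmer probe sets of both were called higher in Ly6Chi. These differed by -0.25 for Ggt5 (limma adjusted p = 0.023) and by -0.21 and -0.18 for Cotl1 (limma adjusted p = 0.029 and 0.049). Other probe sets of Cotl1 were not called.

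Ptgr1, a reductase that inactivates LTB4 and takes the step after Hpgd in prostaglandin breakdown, had the widest difference of the 37 genes. It read 7.39, 7.49, 7.26 and 7.18 in the 4 Ly6Clo samples, against 9.30, 9.50, 9.20 and 8.96 in the 4 Ly6Chi samples. The groups stood apart by 1.46 at their nearest, and Ptgr1 was 3.75-fold lower in Ly6Clo (difference -1.91, 95% interval -2.15 to -1.66, limma adjusted p = 2.0e-07). Of the 6 tested genes of prostanoid export, uptake and breakdown, 3 were called, 1 toward Ly6Clo and 2 toward Ly6Chi, against 32.5% of all genes. Abcc4, a transporter that exports prostaglandin E2, was 1.76-fold lower in Ly6Clo (difference -0.81, limma adjusted p = 5.0e-05). Cbr1, a carbonyl reductase with prostaglandin substrates, was 1.36-fold higher in Ly6Clo (difference 0.44, limma adjusted p = 0.0013).

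Thromboxane synthase, Tbxas1, was the single called gene of 3 tested prostanoid synthases, or 33.3% called against 32.5% of all genes. It read 7.72, 7.60, 7.65 and 7.85 in the 4 Ly6Clo samples, against 8.75, 8.45, 8.74 and 8.49 in the 4 Ly6Chi samples, and was 1.87-fold lower in Ly6Clo (difference -0.90, limma adjusted p = 1.2e-05). The inducible prostaglandin E synthase Ptges and the prostaglandin D synthase Hpgds did not pass the filter. None of 3 tested prostanoid receptors of the list was called. The prostacyclin receptor Ptgir averaged 9.03 ± 0.09 in Ly6Clo and 9.03 ± 0.17 in Ly6Chi and the thromboxane receptor Tbxa2r 7.43 ± 0.04 in Ly6Clo and 7.42 ± 0.05 in Ly6Chi (SD, n = 4 each), with differences within -0.19 to 0.20 and -0.12 to 0.14 at 95%. None of 3 tested lipoxygenases was called either: Aloxe3 differed by -0.12 (limma adjusted p = 0.17) and Alox12 by 0.18 (limma adjusted p = 0.68). Of 3 tested genes of epoxide and lipid mediator handling none was called. The formyl peptide and lipoxin receptor Fpr2 differed by 0.01 (95% interval -0.42 to 0.44), and Cmklr1, a chemerin receptor, by -0.33 (limma adjusted p = 0.12). Cmklr1 was called with the replicate block (limma adjusted p = 0.047) and, at -0.47, without Ly6Chi replicate 4 (limma adjusted p = 0.010).

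**Figure D4:**
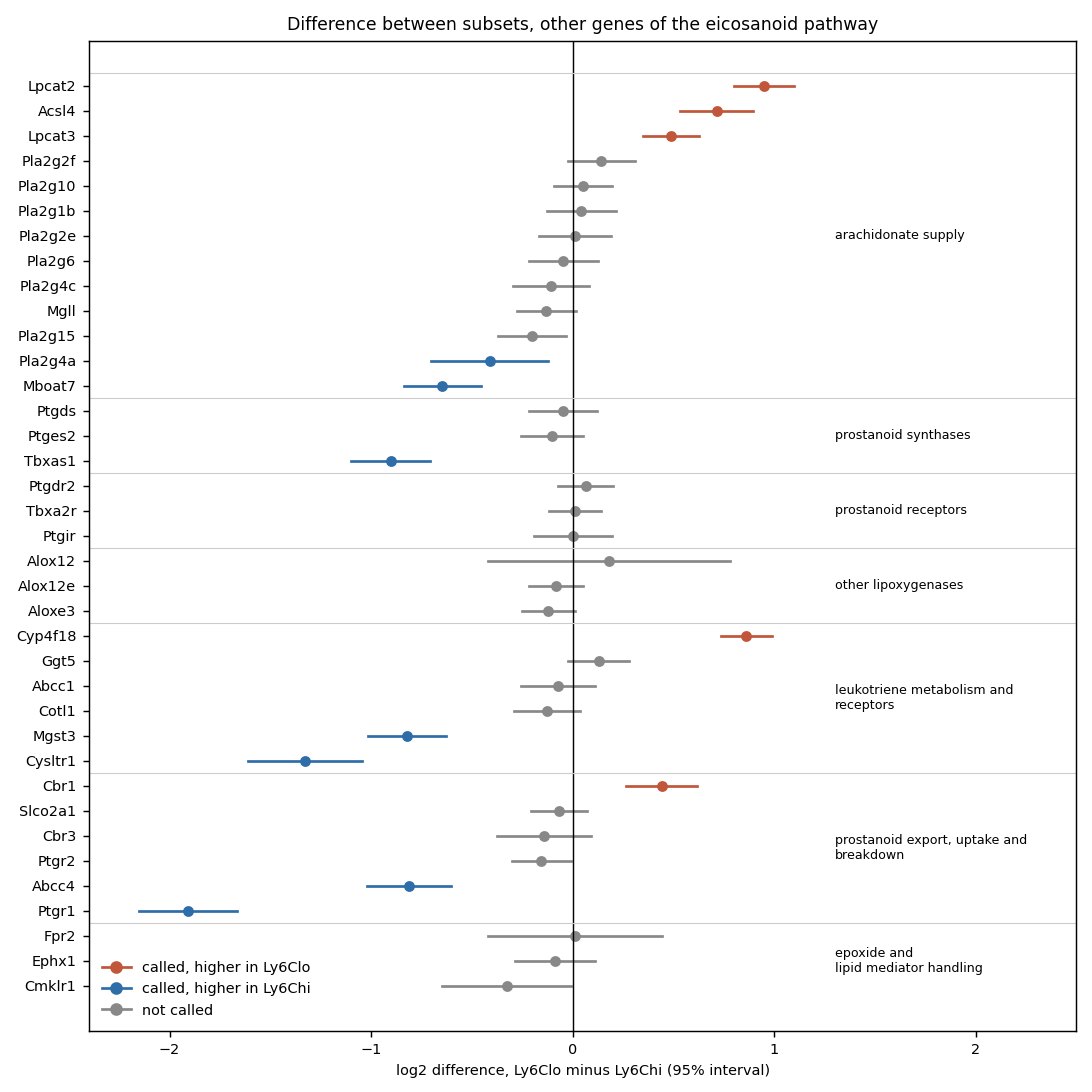
Log2 difference, Ly6Clo minus Ly6Chi, of the 37 other tested eicosanoid genes in 7 groups, with unadjusted 95% intervals and the limma call as colour (red higher in Ly6Clo, blue higher in Ly6Chi, grey not called). Ptgr1 at -1.91 and Cysltr1 at -1.33 lie farthest toward Ly6Chi, Lpcat2 at 0.95 farthest toward Ly6Clo, and Alox12 has the widest interval.

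Platelets carry Ptgs1, Alox12 and thromboxane synthase, so their markers were read beside these results. All 11 measured platelet markers passed the filter, and 0 were called higher in either subset. Their summed intensity was 3129 to 7884 in Ly6Clo and 2713 to 6200 in Ly6Chi, and within each subset it was highest in the sample numbered 1 (7884 and 6200). The platelet chemokines Ppbp and Pf4 differed by 0.43 and 0.32 and were not called. Both values rested on single arrays: without Ly6Clo replicate 1 they were 0.16 and 0.058, without Ly6Chi replicate 4 0.16 and 0.10, without Ly6Clo replicate 3 0.72 and 0.56, and without Ly6Chi replicate 1 0.70 and 0.55. Alox12 was likewise highest in the samples numbered 1, at 8.26 in Ly6Clo and 8.08 in Ly6Chi, against 6.91 to 7.63 and 6.95 to 7.28 in the other samples of each. The brighter probe set of Ptger4 was highest, and Ptger2 lowest, in the samples numbered 1 of each subset. The dimmer Hpgd probe set was also highest in both of them, and the brighter one in Ly6Chi replicate 1 alone. Tbxas1 was highest in Ly6Chi replicate 1 and, among Ly6Clo samples, in replicate 4. The part of platelet RNA in these values was not tested. Without both samples numbered 1, a setting chosen after seeing the data, 7 of the 12 probe sets were called, again 5 toward Ly6Clo and 2 toward Ly6Chi. The difference of Ptger2 was then -0.50 (limma adjusted p = 0.016). For the brighter and dimmer Hpgd probe sets it was 0.99 and 0.77 (limma adjusted p = 2.3e-05 and 1.2e-04). Tbxas1 differed by -0.86 in this setting (limma adjusted p = 2.7e-04). Alox12 at 0.18 and the brighter and dimmer Ptger4 probe sets at 0.20 and 0.29 were not called (limma adjusted p = 0.51, 0.22 and 0.13).

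Other leukocytes that make leukotrienes were read in the same way. Of 11 measured neutrophil markers, 8 passed the filter, 0 were called higher in Ly6Clo and 4 were called higher in Ly6Chi. Over all genes tested, 14.1% were called toward Ly6Clo and 18.5% toward Ly6Chi. Summed intensities of the neutrophil list were 1522 to 1643 in Ly6Clo and 2297 to 2481 in Ly6Chi. The growth factor receptor Csf3r, which monocytes also express, was 1.48-fold lower in Ly6Clo, and Padi4 was at least 3.26-fold lower, against the table median. The other called markers, named after their values were seen, were Lcn2 and Mpo. Lcn2 was at least 1.72-fold lower in Ly6Clo (limma adjusted p = 3.0e-04), and Mpo was 1.18-fold lower (limma adjusted p = 0.033). Cxcr2, Mmp9 and Stfa2l1 lay below the filter. Elane, Ltf, Camp and Ngp were tested and not called, at -0.03, -0.21, -0.31 and -0.42. The 4 called markers moved with Alox5ap, Ptger2, Cysltr1, Ptgr1 and Tbxas1, all lower in Ly6Clo. The part of neutrophils in those results was not tested. Of 8 measured markers of basophils and mast cells, 2 passed the filter (Gata2 and Cma1) and 0 were called, and all 5 measured eosinophil markers, Epx and Ccr3 among them, lay below it. The summed intensity of the basophil and mast cell list was 553 to 691 in Ly6Clo and 554 to 607 in Ly6Chi, and of the eosinophil list 208 to 228 in Ly6Clo and 209 to 221 in Ly6Chi.

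Calls in the lymphoid and dendritic lists stand against 14.1% of all genes called toward Ly6Clo and 18.5% toward Ly6Chi. The B cell list had 6 markers tested, of which 2 were called higher in Ly6Chi, with summed intensities of 3046 to 3981 in Ly6Clo and 3317 to 4665 in Ly6Chi. Its brightest members Ighm and Cd79b differed by -0.06 and -0.39 and were not called, although Cd79b was called with the replicate block (limma adjusted p = 0.018) and, at -0.53, without Ly6Clo replicate 1 (limma adjusted p = 0.043). The called ones, named after their values were seen, were Ms4a1, at least 1.85-fold lower in Ly6Clo (limma adjusted p = 0.005), and Cd79a, at least 1.47-fold lower (limma adjusted p = 0.035). Of 5 measured NK cell markers 2 passed the filter and 1 was called higher in Ly6Clo, the granzyme Gzma, at 1.64-fold, while the receptor Klrk1 differed by 0.07, and the sums were 745 to 900 in Ly6Clo and 652 to 684 in Ly6Chi. Of 6 measured dendritic cell markers 5 passed the filter and 2 were called higher in Ly6Chi, Bst2 and Flt3, with sums of 1048 to 1126 in Ly6Clo and 1434 to 1779 in Ly6Chi. Of 7 measured T cell markers 6 passed the filter and 0 were called higher in either subset, with Cd3d and Cd3e differing by 0.15 and 0.01 and sums of 839 to 992 in Ly6Clo and 848 to 935 in Ly6Chi. Alox5 and Hpgd, higher in Ly6Clo, moved with Gzma. The dendritic cell markers Bst2 and Flt3 and the B cell markers Ms4a1 and Cd79a moved with Alox5ap, Ptger2, Cysltr1, Ptgr1 and Tbxas1. Others of these lists were not called: Zbtb46, Siglech and Ccr7 differed by 0.19, 0.06 and -0.02, and Pax5 and Blk by 0.01 and -0.20. Xcr1 lay below the filter. The part of NK, dendritic and B cells in these results was not tested.

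Genes whose profile over the 8 arrays lay nearest to the called members with the widest difference in each direction were sought among 11545 other genes, by the root-mean-square distance between log2 profiles centred on their own mean. Nearest to Alox5 were the somatostatin receptor gene Sstr4 at a distance of 0.070, the transcriptional repressor gene Hes1 at 0.111 and the lysophospholipid acyltransferase gene Agpat4 at 0.114, with differences of 1.70, 1.59 and 1.51. Nearest to Ptger2 were the phospholipid flippase gene Atp8a1 at 0.109, Tmtc3 at 0.115 and Parp14 at 0.116, with differences of -0.65, -0.43 and -0.47. All 8 arrays enter each distance, so the difference between the subsets is part of the likeness.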

How the data were processed

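RNA of 8 sorted samples was measured, 1 array each. Per the labels, sorted cells went into TRIzol, and the transcription step of labelling ran for 64 h in place of 4 h, which can alter measured ratios. The authors deposited linear intensities, 8.64 to 27145.5 over all probe sets, and the array medians lie within 80.5 to 83.0. GCRMA and MAS5 stand in the submitters' processing notes with neither version nor role, and how the arrays were normalized is not given in the sources used here. Their log2, without a pseudocount, was analysed. Of 45101 probe sets, 64 controls were left out. The platform annotation gave 1 symbol to 34945 probe sets, several to 932 and none to 9160. Of the first, 34741 matched RefSeq by Entrez identifier and 0 changed name.

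Subsets came from the sample titles. The limma package (3.58.1, run in R 4.3.3) fitted the differences with lmFit and eBayes, two-sided and with no block, after a test on simulated data. No label ties a replicate number to a shared sort across subsets, and deviations of same-numbered samples correlated at -0.10 to 0.34. The text names all probe sets of the genes studied, the 2 called genes with the widest difference per direction in each pathway group (or the 2 with the highest mean where none is called), the 2 brightest markers per list of another cell type and the 3 nearest profiles. The genes, lists and tests were chosen with earlier results of these data known. Alternatives were single arrays left out, the replicate block, no filter or 2 times its level, quantile or median normalization, a pseudocount of 32, variance models, array weights, a threshold of 0.01 and other probe set rules.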

Additional observations from a re-analysis of the deposited data

Results flagged for a closer look

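In 4 of 130 groups of 4 samples tested, 1 sample lay past Dixon's 95% critical value for the ratio of its gap to the whole range, where chance gives about 1 in 20. Ly6Chi replicate 3 was lowest for Lpcat2 (ratio 0.836), at 9.33 against 9.41 to 9.43 in the others. It was lowest for Sstr4 too (ratio 0.887). Ly6Chi replicate 4 was lowest for Gzma (ratio 0.878), at 7.13. Ly6Clo replicate 3 was lowest for the log2 summed intensity of dendritic cell markers (ratio 0.912). No group of Alox5, Alox5ap, Lta4h, Ltc4s, Ltb4r1, Ptgs2, Ptger2, Ptger4 or Hpgd values was among these 4.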

How the results depend on the processing

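Alox5, Alox5ap, Ptger2, both Hpgd probe sets and 2 of 3 Lta4h probe sets kept their direction and their call under every alternative run on them. Called probe sets of the 12 numbered 7 to 9 when single arrays were left out, 5 to 7 of them higher in Ly6Clo and 2 to 3 higher in Ly6Chi, and other eicosanoid genes 11 to 14. With the replicate block, 8 of the 12 were called, the eighth being Ltb4r1 (limma adjusted p = 0.036). The replicate numbers are shared between subsets but are not known to pair the samples, and 3 of 8 samples correlated best with their own number. Ltb4r1 was also called without Ly6Chi replicate 2 or Ly6Clo replicate 4. At a threshold of 0.01, the calls toward Ly6Clo among all probe sets numbered 2290 in place of 3472. The Ltc4s to Lta4h ratio was -0.26 with the mean of the probe sets (exact permutation p = 0.20). Without single arrays it was -0.61 to -0.45 and the groups never overlapped, although 6 of these cases gave an exact permutation p of 0.057. The Ptger4 to Ptger2 ratio was 0.56 to 0.88 and the Alox5 to Alox5ap ratio 1.93 to 2.03 without single arrays. Exact tests on 4 pairs cannot go below 0.125. Uncalled differences near 0 changed sign. Leaving out single arrays gave -0.0586 to 0.0472 for the uncalled Lta4h probe set, -0.0423 to 0.0834 for Ptgir, -0.163 to 0.165 for Fpr2, -0.00585 to 0.032 for Tbxa2r, -0.0478 to 0.41 for Alox12, -0.143 to 0.0215 for Ighm, -0.0237 to 0.0366 for Cd3e, -0.0118 to 0.13 for Klrk1 and -0.00507 to 0.166 for Gata2. Array weights gave -0.029 for the uncalled Lta4h probe set, -0.0051 for Ptgir and -0.12 for Fpr2, and centred arrays -0.0025 for Ptgir. Without both samples numbered 1, that Lta4h probe set gave -0.0091 and Fpr2 -0.049. The cause of these changes was not tested. Ptgs1 had no value here, so alternatives for its ratio were not run. Signal near the table median limits what can be said of Ltc4s, Ptgs2 and the dimmer Lta4h probe sets.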
